A study of Mus musculus with 18 samples.

Results

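The livers of wild-type mice given the carcinogen N-nitrosodiethylamine (DEN) were compared with those of wild-type mice given saline, which asks how liver transcripts differ once the acute effect of the injection is past. The comparison takes the 3 arrays titled as wild type with DEN and the 3 titled as wild type with saline, 6 of the 18 Affymetrix Mouse430_2 arrays of the series. Male Hmgn1+/+ mice received DEN at 10 µg per g of body weight, or saline, when 4 weeks old, and total RNA was taken from frozen whole liver. Both groups are labelled 12 weeks, and whether these run from birth or from the injection is uncertain. The other 12 arrays are uninjected wild-type livers at 4 weeks and the same 3 conditions in Hmgn1-/- mice, which descend from littermates of the wild-type mice but were bred on as a homozygous line of their own. The arrays of a group are numbered 1 to 3, with no statement that they come from separate animals. The p-values therefore measure only the spread between arrays within the groups of the series, which may be technical.

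DEN is not itself reactive: hepatocytes oxidize it, chiefly with the cytochrome P450 enzyme CYP2E1, to an ethylating agent that forms DNA adducts. A single dose to young male mice is a widely used way to start liver tumours, which grow out many months later. Damaged hepatocytes respond at first through p53, DNA repair and cytokine-driven acute-phase genes, while the liver's standing work of cholesterol, bile acid, lipoprotein and plasma protein synthesis follows feeding, hormones and the circadian clock.

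Each array reports a signal for 45101 probe sets. Differences are given as log2(signal + 16) after quantile normalization, DEN minus saline, with the SE of the fitted difference (n = 3 arrays per group). The fit took in all 18 arrays, so each SE and p-value rests on spread pooled over the 6 groups, not on the compared arrays alone. Where the DEN arrays varied most, as for Cyp7a1 (SD 0.665 with DEN, 0.198 with saline), the pooled SE understates the spread of the compared arrays. A probe set was called, and its gene said to have risen or fallen, when limma's p-value after Benjamini-Hochberg adjustment over all 27022 tested probe sets was under 0.05; adjusted p in the text always has this meaning. The saline arrays stood apart from the DEN arrays at the bright end of the signal. Their highest signals were 16720 to 21752 against 46967 to 59110, and their 99th percentiles 4709 to 5300 against 6233 to 6497. The spiked-in hybridization controls were lower on the saline arrays too, by 2.3 to 2.55 on the log2 scale. Gapdh 3' to 5' signal ratios, a measure of RNA integrity, were 1.19 to 1.33 with saline and 1.02 to 1.13 with DEN. This difference between the arrays and the treatment cannot be told apart, so values on the deposited scale, which was not quantile-normalized, are given beside the named genes and lists where they differ most. Between-array correlations over tested probe sets were 0.9707 to 0.9727 among the DEN arrays and 0.9882 to 0.9888 among the saline arrays. The 9 pairs across groups gave 0.9718 to 0.9772. The DEN arrays were thus no more alike among themselves than they were like the saline arrays. Alb, Ttr and Cps1, hepatocyte products, were among the brightest signals in both groups.

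Of 12900 genes, each represented by its brightest tested probe set, 488 were called (3.78%): 204 rose (1.58%) and 284 fell (2.2%). The median difference was -0.5 among genes that fell and 0.46 among those that rose, against 0.001 over all genes. Only 7 risen and 16 fallen genes differed by 1 or more on the log2 scale. At probe set level 983 were called (3.64%), 400 higher (1.48%) and 583 lower (2.16%) with DEN. With deposited values the split was 919 higher and 847 lower; by gene, 6.99% of genes were then called, 3.82% risen and 3.18% fallen. The probe set split was 502 higher and 1259 lower with array medians centred. The arrays of the groups did not overlap in 202 of the 204 risen and 279 of the 284 fallen genes; among all genes tested 11.9% lay wholly above and 12.2% wholly below the saline arrays. The count of called probe sets was 1171, 590 or 550 without DEN array 1, 2 or 3, and 365, 278 or 470 without saline array 1, 2 or 3. Of the 488 genes, 100 (36 risen, 64 fallen) were called in all 6 of these fits, and such genes are described as called whichever array was left out.

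**Figure D1:**
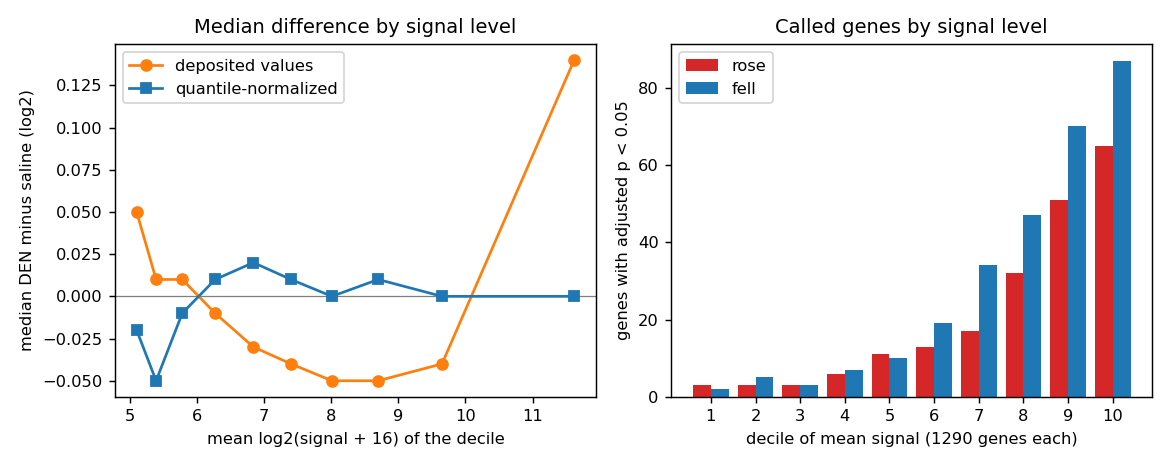
Left, the median DEN minus saline difference (log2) of genes in each decile of mean level, with deposited values (circles) and after quantile normalization (squares); right, the number of genes that rose (red) and fell (blue) in each decile. The deposited values place the brightest decile 0.14 higher with DEN while quantile normalization sets it to 0, and 65 of the risen and 87 of the fallen genes lie in that decile.

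The choice of scale mattered most for bright genes. All 204 risen genes were also higher with DEN in the deposited values, but 16 of the 284 fallen genes were not, and each of these 16 had a mean DEN signal of at least 5095.2. Fabp1, the main fatty acid binding protein of hepatocytes, shows this: its level was 14.99 on each DEN array and 15.22 on each saline array, a difference of -0.23 ± 0.04 (SE) with adjusted p = 0.00571, whereas its deposited values differed by 1.24 the other way. Fabp1 and the other genes whose sign turns stay in every count of called and fallen genes. Their falls are not taken as evidence of a direction.

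**Figure D2:**
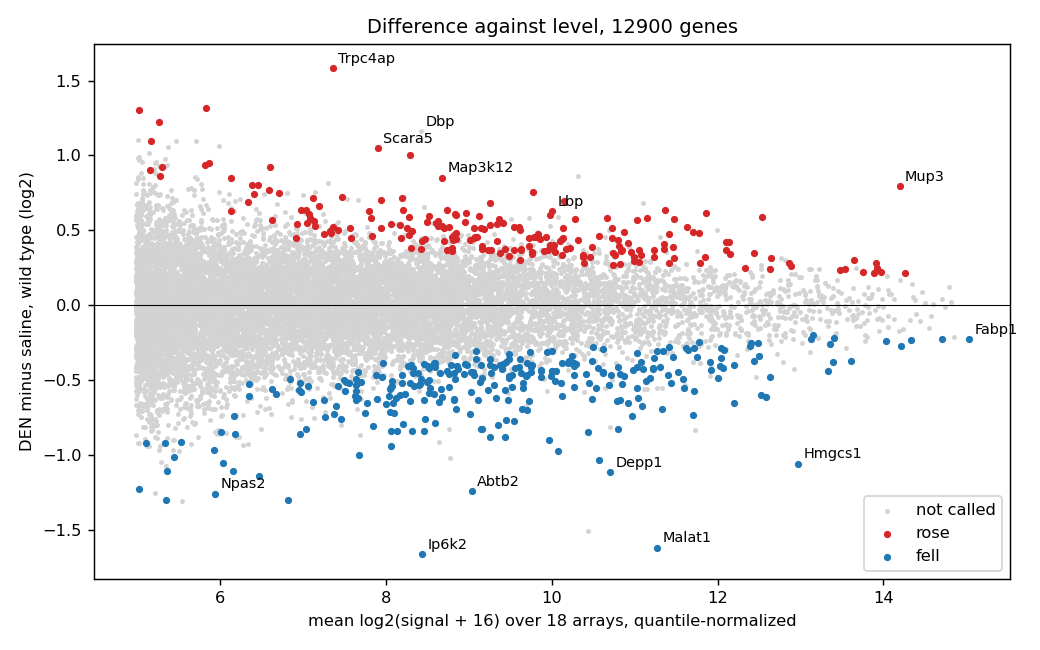
DEN minus saline difference (log2) of each of the 12900 genes against its mean level over the 18 arrays; red and blue points are genes that rose and fell (adjusted p under 0.05), grey points were not called. Ip6k2 (-1.67), Malat1 (-1.62) and Hmgcs1 (-1.06) stand out below and Trpc4ap (1.58) above.

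Of the cholesterol synthesis genes measured, those called were lower with DEN. This pathway turns acetyl-CoA into cholesterol through HMG-CoA, mevalonate and squalene, and the transcription factor SREBP2 switches its genes on together when sterols are scarce. Of 21 measured genes, 6 fell and 0 rose, where 2.2% of all genes fell; the list's median was -0.24 against 0 over all genes, and with deposited values, where 3.18% of all genes fell, 3 fell and 0 rose. With the 6 compared arrays fitted alone 1 fell, where 140 of 12936 genes fell, and the median was -0.27. The 6 members that fell were Hmgcs1, Fdft1, Idi1, Sc5d and Cyp51, 5 enzymes of the pathway, and Insig1, which holds the SREBP precursor in the endoplasmic reticulum. Upstream sequences are shown for the fallen genes that hold 2 kinds of the motifs named below. Idi1 and Cyp51 hold CCAAT alone and are not shown, and Fdft1 had no promoter sequence. The sequences are the 250 bases before the RefSeq start site in build GRCm38.p6, 5′ to 3′ along the gene's strand. They belong to Hmgcs1 (chr13:119690101-119690350, plus strand), Insig1 (chr5:28071162-28071411, plus strand) and Sc5d (chr9:42264301-42264550, minus strand). Capitals mark 3 motifs, each searched on both strands. The first is the box CCAAT, which reads ATTGG where it lies on the other strand. The second is the core of a known sterol response element, spelled CACCCCA, and the third is the E-box, spelled CACGTG. They do not overlap in these windows.
Hmgcs1: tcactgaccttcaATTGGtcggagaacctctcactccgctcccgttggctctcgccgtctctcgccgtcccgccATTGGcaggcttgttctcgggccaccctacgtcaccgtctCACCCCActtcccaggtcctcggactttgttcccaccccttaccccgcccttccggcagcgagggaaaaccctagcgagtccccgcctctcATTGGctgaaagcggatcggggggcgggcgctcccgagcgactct
Insig1: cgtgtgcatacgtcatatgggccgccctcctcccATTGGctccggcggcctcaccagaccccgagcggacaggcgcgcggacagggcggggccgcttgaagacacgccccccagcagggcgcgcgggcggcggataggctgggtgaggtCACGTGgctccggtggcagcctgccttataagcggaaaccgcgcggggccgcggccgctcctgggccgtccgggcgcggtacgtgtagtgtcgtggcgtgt
Sc5d: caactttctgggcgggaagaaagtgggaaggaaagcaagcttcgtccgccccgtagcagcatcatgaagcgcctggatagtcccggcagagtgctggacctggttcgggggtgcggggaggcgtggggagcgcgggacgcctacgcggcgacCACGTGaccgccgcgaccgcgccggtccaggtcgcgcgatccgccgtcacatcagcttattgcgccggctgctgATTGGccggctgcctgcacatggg

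CCAAT lay in this window in 5 of the 5 fallen genes with a promoter sequence and in 17 of 18 genes of the whole list, against 39.8% of tested genes. CACCCCA lay in 1 of the 5 (Hmgcs1), against 8.66% of tested genes, and CACGTG in 2 of the 5 (Insig1 and Sc5d), against 9.7%. Over all fallen genes CACGTG lay in 36 of 229 promoters (15.7%) and over all risen genes in 16 of 166 (9.64%). A match describes letters in this window and no binding.

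Hmgcs1, cytosolic HMG-CoA synthase, fell most among these enzymes. The level of its brightest probe set was 12.81, 11.58 and 12.76 on the DEN arrays and 13.39, 13.54 and 13.40 on the saline arrays. All DEN arrays lay below all saline arrays, with DEN array 2 lowest by more than 1 log2 unit, and the 4-week wild-type arrays (13.40, 13.91 and 13.61) lay with the saline arrays. The difference was -1.06 ± 0.21 (SE; adjusted p = 0.00945), and 3 of its 4 other probe sets were also called, at -0.82, -0.73 and -0.95. On the deposited scale the difference was -0.51 and was not called (adjusted p = 0.248). Without saline array 2 its adjusted p was 0.0502. Fdft1, squalene synthase, stood at 10.92, 10.42 and 11.06 with DEN against 11.36, 11.41 and 11.64 with saline. Here too the groups did not overlap and DEN array 2 was lowest; the difference was -0.67 ± 0.14 (SE; adjusted p = 0.0118), with adjusted p = 0.0586 without DEN array 2 and 0.0632 without saline array 3. The second Fdft1 probe set differed by -0.12 and was not called (adjusted p = 0.774). Insig1 was 11.55, 11.26 and 11.20 with DEN and 11.74, 11.89 and 11.72 with saline, a difference of -0.45 ± 0.09 (SE; adjusted p = 0.0118). The groups did not overlap, and DEN arrays 2 and 3 were alike; its adjusted p was 0.0599 without DEN array 3 and 0.0726 without saline array 2. Insig1 (-0.32, adjusted p = 0.0685), Idi1 (-0.37, adjusted p = 0.153) and Sc5d (-0.17, adjusted p = 0.467) were not called on the deposited scale either, while Fdft1 (-0.60) and Cyp51 (-0.43) were. After quantile normalization the differences of Idi1, Sc5d and Cyp51 were -0.49, -0.42 and -0.41, and the adjusted p of each passed 0.05 when DEN array 2 was left out (0.199, 0.109 and 0.19) and when single saline arrays were. The number of fallen genes in the list was 7, 2 and 3 without DEN array 1, 2 and 3, and 3, 1 and 2 without saline array 1, 2 and 3, while its median stayed between -0.28 and -0.21. Summed over the 21 genes, the normalized linear level was 25018 to 37788 with DEN, 42751 to 45611 with saline and 48095 to 50120 at 4 weeks.

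**Figure D3:**
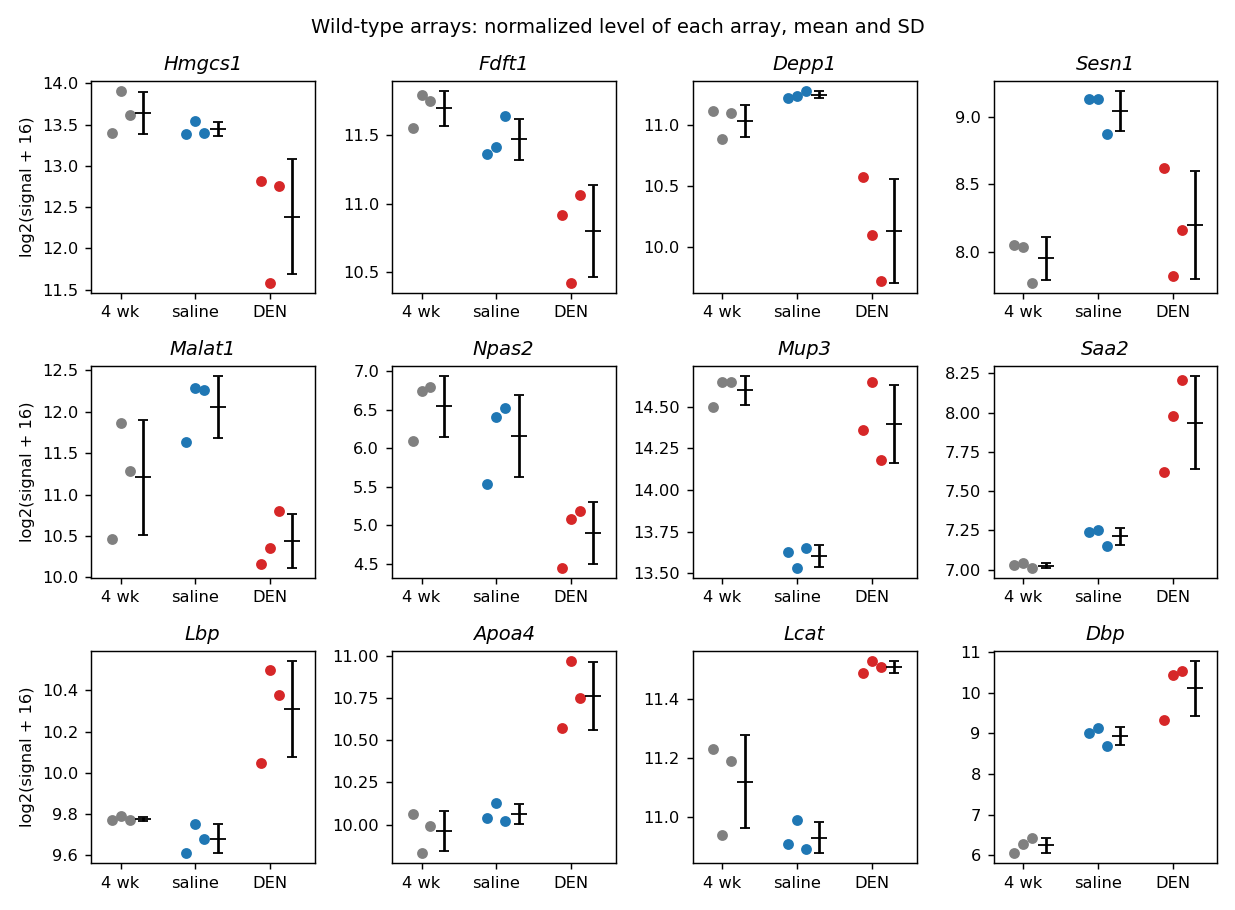
Normalized level, log2(signal + 16), of 12 genes on each wild-type array at 4 weeks (grey), with saline (blue) and with DEN (red), with the mean and SD of each group of 3 beside the points. In Hmgcs1, Fdft1 and Depp1 the DEN arrays lie below both other groups, in Saa2, Lbp, Apoa4 and Lcat above both; in Mup3 the saline arrays lie apart, and in Sesn1 and Dbp the 4-week arrays differ from saline as well.

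The called genes of bile acid synthesis and transport were lower as well. Cyp7a1, whose enzyme commits cholesterol to bile acids and sets the pace of that pathway, was 9.55, 8.27 and 9.21 with DEN and 9.71, 9.85 and 10.10 with saline. The groups did not overlap, but DEN array 1 lay only just below the lowest saline array; the difference was -0.88 ± 0.23 (SE; adjusted p = 0.0375), and adjusted p was 0.171 without DEN array 2. The call was also lost without DEN array 3 or any single saline array (adjusted p from 0.0576 to 0.146). Akr1d1, the steroid reductase that acts later in bile acid synthesis, fell by 0.64 ± 0.14 (SE; adjusted p = 0.0118), and Abcc2, the canalicular export pump for conjugated anions, fell by 0.46 ± 0.12 (SE; adjusted p = 0.0419). Akr1d1 stood at 10.65, 10.69 and 10.59 on the 4-week arrays, near its DEN levels of 10.77, 10.59 and 10.42. Its second probe set differed by -0.06 between DEN and saline and was not called. In the list of 30 measured bile acid genes Cyp7a1, Akr1d1 and Abcc2 fell and 0 rose, where 2.2% of all genes fell, with a median of 0.01. With deposited values 4 fell and 8 rose, against 3.18% fallen and 3.82% risen over all genes. Without DEN array 3 or saline array 2 none was called, and with the 6 compared arrays fitted alone 1 fell. Of 28 fatty acid synthesis genes 2 fell and 0 rose, where 2.2% of all genes fell, with a median of -0.12. With deposited values 1 fell and 2 rose, against 3.18% fallen and 3.82% risen over all genes, with a median of -0.05. Gpam, which starts triglyceride synthesis from glycerol phosphate, was 12.05, 11.76 and 12.13 with DEN and 12.45, 12.73 and 12.73 with saline. Its groups did not overlap, and the difference of -0.66 ± 0.11 (SE; adjusted p = 0.00332) was called whichever array was left out. On the deposited scale it was -0.33 and was not called (adjusted p = 0.136). The second, dimmer Gpam probe set differed by -0.03 and was not called. The other fallen gene of this list, the fatty acid elongase Elovl5, has a sign that turns with the scale (-0.38, and 0.25 with deposited values).

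The called genes of lipoproteins and reverse cholesterol transport were higher with DEN. Of 18 measured genes 6 rose and 0 fell, where 1.58% of all genes rose, and the list's median was 0.11. With the 6 compared arrays fitted alone 2 rose. On the deposited scale 11 rose and 0 fell, where 3.82% of all genes rose. Bright genes lay higher with DEN on that scale, where 19 of 22 plasma protein genes rose, so that count adds no support. Apoa4, an apolipoprotein of triglyceride-rich particles and HDL, was 10.57, 10.97 and 10.75 with DEN against 10.04, 10.13 and 10.02 with saline. The 4-week arrays (10.06, 9.83 and 9.99) lay with saline; the difference was 0.70 ± 0.11 (SE; adjusted p = 0.00169), and the second Apoa4 probe set gave 0.68 (adjusted p = 0.0109). Lcat, the plasma enzyme that esterifies cholesterol on HDL, was 11.49, 11.53 and 11.51 with DEN and 10.91, 10.99 and 10.89 with saline. The arrays of each group lay within 0.1 of each other, with a difference of 0.58 ± 0.10 (SE; adjusted p = 0.00281); Apoa4 and Lcat were each called whichever array was left out. Apoc2, the cofactor of lipoprotein lipase, rose by 0.42 ± 0.09 (SE; adjusted p = 0.0143), and by 0.70 on the deposited scale. Apom, Apoc1 and Apoe rose by 0.37, 0.28 and 0.21; Apoc1 and Apoe are bright, and on the deposited scale their differences were 1.13 and 1.18. Apoe lost its call on leaving out any 1 of the 6 arrays, Apom and Apoc2 on leaving out any of 4, and Apoc1 on leaving out saline array 2 (adjusted p = 0.0629). The number of risen genes in the list was 5, 3 and 3 without DEN array 1, 2 and 3, and 3, 2 and 5 without saline array 1, 2 and 3; without DEN array 2, 1 gene fell.

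The acute-phase genes called, of a group that hepatocytes switch on under interleukin-6 and related cytokines, were also higher. Of 29 measured genes 5 rose and 0 fell, where 1.58% of all genes rose, with a median of 0.24 and 22 of 29 differences above 0. With deposited values 15 rose and 0 fell, where 3.82% of all genes rose. Bright genes lay higher with DEN on that scale, so that count adds no support. Saa2, serum amyloid A, was 7.62, 7.98 and 8.21 with DEN, 7.24, 7.25 and 7.15 with saline, and 7.03, 7.04 and 7.01 at 4 weeks. Every DEN array lay above the other 6, and the difference was 0.72 ± 0.14 (SE; adjusted p = 0.00766). Lbp, which carries bacterial lipopolysaccharide, was 10.05, 10.50 and 10.38 with DEN against 9.61, 9.75 and 9.68 with saline. Its groups did not overlap either, and the difference was 0.63 ± 0.10 (SE; adjusted p = 0.00261). The second, dimmer Lbp probe set differed by 0.08 and was not called. Serpina3n, a secreted protease inhibitor, rose by 0.57 ± 0.12 (SE; adjusted p = 0.0126; 0.0681 without DEN array 3, the highest), and the haemoglobin and heme carriers Hp and Hpx by 0.30 and 0.21, against 1.0 and 1.06 on the deposited scale. Saa2, Lbp and Hp were called whichever array was left out, and the number of risen genes in the list was 9 without DEN array 1, 3 without DEN array 3, and 4 or 5 without any other. Mt1, a metallothionein that responds to stress hormones and cytokines, varied widely within both groups: 10.58, 9.43 and 12.66 with DEN and 10.23, 8.71 and 11.15 with saline. These overlap, and its difference of 0.86 ± 0.57 (SE) had adjusted p = 0.463.

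Inflammatory genes outside the acute phase were not broadly called. Of 18 cytokine and chemokine genes 0 were called by their brightest probe set, with a median of -0.02. A dimmer probe set of Nfkbia, a member of this list, was called at -0.57 (adjusted p = 0.00382). Its remaining dimmer probe sets differed by -0.13, 0.06 and 0.45 and were not called. Over all genes 1.58% rose and 2.2% fell. Of 27 interferon-response genes 1 rose, Ifi27, a mitochondrial interferon-induced protein, by 0.45 ± 0.09 (SE; adjusted p = 0.00854; 0.0513 without saline array 2). Of 25 macrophage and Kupffer cell genes 1 rose, C1qc, a chain of complement C1q, by 0.56 ± 0.13 (SE; adjusted p = 0.0155), with a list median of 0.09; C1qc lost its call without DEN array 3 or saline array 1 or 2.

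Few plasma protein genes beyond these were called on the normalized scale. Of 22 measured, 3 rose (Hp, Hpx and the fetuin Ahsg, the last by 0.24, and by 0.86 on the deposited scale) and 0 fell, with a median of 0.03, while 19 rose with deposited values, where the median was 0.86. Over all genes 1.58% rose, and 3.82% with deposited values. Mup3, a major urinary protein made under growth hormone and androgen, was the exception in size. Its level was 14.36, 14.65 and 14.18 with DEN, 13.63, 13.53 and 13.65 with saline, and 14.50, 14.65 and 14.65 at 4 weeks. DEN and 4-week arrays overlapped and only the saline arrays lay lower; the DEN minus saline difference was 0.79 ± 0.11 (SE; adjusted p = 0.000486), and 1.65 on the deposited scale. Its probe set has a name in _x_at, which marks possible cross-hybridization, and the Mup genes are near-identical copies, so the value is uncertain for this member of the family; the other Mup3 probe set had the opposite sign. Mup3 was the 1 gene called of 20 male-biased and growth hormone response genes, of which 8 rose and 0 fell with deposited values (median 0.37), and Hsd3b5, a male-specific steroid enzyme, differed by 0.27 (adjusted p = 0.237).

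Genes that activate DEN were called or not depending on the scale, and few genes of DNA repair were called on either. Of 4 measured DEN-activating enzymes 0 were called, whereas 3 rose with deposited values (median 0.63). Cyp2e1 was 14.37, 14.40 and 14.36 with DEN and 14.28, 14.12 and 14.32 with saline; the groups did not overlap, the difference was 0.14 (95% interval 0.02 to 0.27) with adjusted p = 0.204, and on the deposited scale it was 1.18 (adjusted p = 3.46e-08). Of 25 drug-metabolizing P450 genes 1 rose, Cyp2f2, by 0.24, and it lost its call on leaving out any 1 of the 6 arrays. With deposited values 9 rose and 0 fell, Cyp2f2 by 0.89. Over all genes 1.58% rose and 2.2% fell, and with deposited values 3.82% rose and 3.18% fell. Of 20 alkylation and base excision repair genes, 20 nucleotide excision repair genes and 19 double-strand break and mismatch repair genes 0 were called, with medians of -0.07, -0.08 and -0.06, and with deposited values 1 fell among the nucleotide excision repair genes and 0 in the other two lists. Mgmt, which removes alkyl groups from guanine, differed by -0.25 (95% interval -0.70 to 0.20; adjusted p = 0.594). Of 19 fetal liver, progenitor and tumour marker genes 0 were called; Afp (-0.11, adjusted p = 0.883) and Gpc3 (0.01, adjusted p = 0.992), both markers of liver cancer, lay close to the low end of the signal in both groups. Of 24 cell cycle genes 1 fell, the replication helicase subunit Mcm4, by 0.57 ± 0.15 (SE; adjusted p = 0.032).

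Among p53 targets the 2 genes called, of 25 measured, were lower with DEN, where 2.2% of all genes fell. Sesn1, a stress-induced inhibitor of mTORC1, was 8.62, 7.82 and 8.16 with DEN, 9.13, 9.13 and 8.87 with saline, and 8.05, 8.04 and 7.77 at 4 weeks. The saline arrays were the high ones and the DEN and 4-week arrays overlapped; the DEN minus saline difference was -0.84 ± 0.16 (SE; adjusted p = 0.0057), called whichever array was left out. The other Sesn1 probe sets differed by -0.11 and -0.44 and were not called. Trp53inp1, a p53 and autophagy cofactor, fell by 0.74 ± 0.20 (SE; adjusted p = 0.0423) and lost its call on leaving out any array other than DEN array 1. Cdkn1a, the cell cycle inhibitor p21, was 8.68, 7.29 and 7.29 with DEN and 8.04, 7.99 and 8.14 with saline. DEN array 1 was above and the others below all saline arrays, and the difference of -0.30 had adjusted p = 0.679. Mdm2, the ubiquitin ligase of p53, differed by -0.03 (95% interval -0.45 to 0.39; adjusted p = 0.963).

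**Figure D4:**
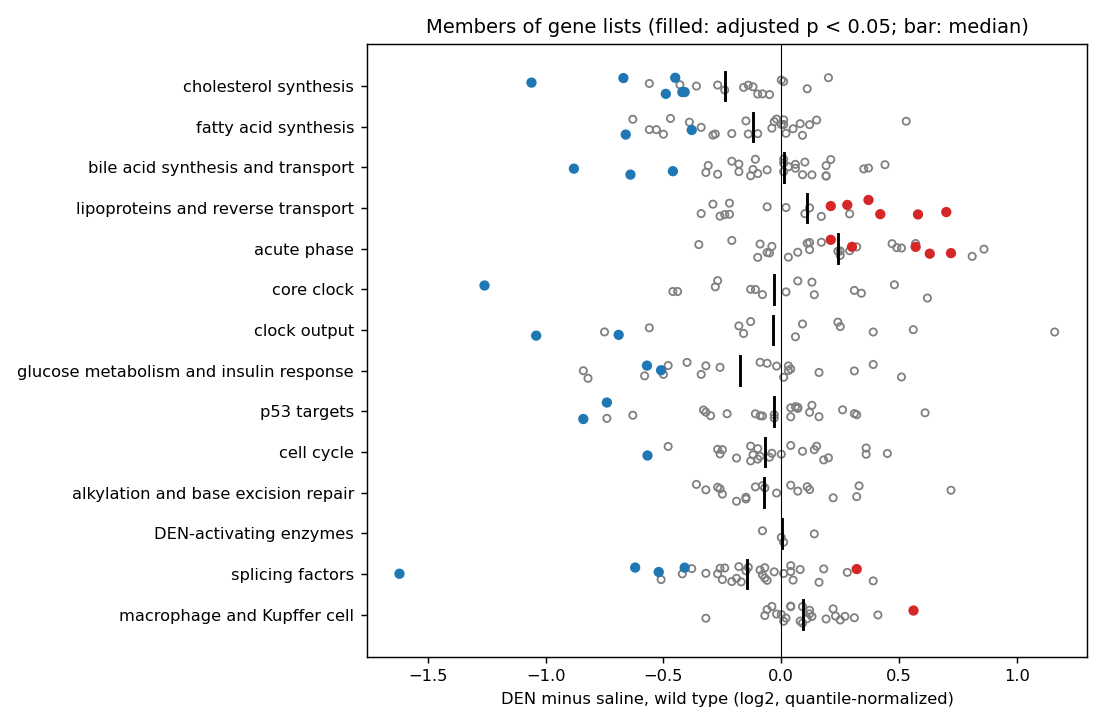
DEN minus saline difference (log2) of each measured member of 14 gene lists; filled points are genes that rose (red) or fell (blue) with adjusted p under 0.05, open points were not called, and the black bar is the list's median. Cholesterol synthesis holds 6 fallen genes, lipoproteins 6 and the acute phase 5 risen genes, and the repair and DEN-activating lists none on this normalized scale.

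Some genes set by feeding, glucocorticoids and the circadian clock also fell. Npas2, a partner of BMAL1 in the core clock, was 4.44, 5.08 and 5.18 with DEN and 5.54, 6.41 and 6.52 with saline. The groups did not overlap, though all levels were low; the difference was -1.26 ± 0.29 (SE; adjusted p = 0.019), and adjusted p was 0.0645 without DEN array 1, 0.101 without saline array 2 and 0.0997 without saline array 3. It was the 1 gene called of 16 core clock genes; Arntl, which encodes BMAL1, differed by -0.44 (adjusted p = 0.267) and Nr1d1 by 0.07 (adjusted p = 0.948). Dbp, a clock-driven transcription factor with a large daily swing, was 9.32, 10.44 and 10.54 with DEN, 9.0, 9.12 and 8.69 with saline and 6.05, 6.28 and 6.42 at 4 weeks. DEN arrays were all above saline, yet its difference of 1.16 ± 0.42 (SE) had adjusted p = 0.132. The time of day at collection is not given in the labels. Of 14 clock output genes 2 fell, where 2.2% of all genes fell (4 with deposited values, where 3.18% fell). They were the repressor Nfil3, by 0.69 ± 0.15 (SE; adjusted p = 0.0141), and the glucocorticoid target Tsc22d3, by 1.04 ± 0.27 (SE; adjusted p = 0.0312). Tsc22d3 was 10.76, 9.40 and 9.88 with DEN and 11.03 to 11.07 with saline, and neither it nor Nfil3 was called without DEN array 2, DEN array 3, saline array 2 or saline array 3. The other Tsc22d3 probe sets differed by -0.16, 0.02 and -0.15, and none was called. Of 22 glucose metabolism and insulin response genes 2 fell and 0 rose, where 2.2% of all genes fell, with a median of -0.18. They were Irs1, the insulin receptor substrate, by 0.57 ± 0.13 (SE; adjusted p = 0.0151), and Ppargc1a, the fasting coactivator PGC-1alpha, by 0.51 ± 0.14 (SE; adjusted p = 0.0393). Irs1 lost its call without DEN array 3 or saline array 3, and Ppargc1a on leaving out any array other than DEN array 1. Depp1, a fasting-induced FOXO target, was 10.57, 10.10 and 9.72 with DEN, 11.22, 11.24 and 11.28 with saline and 11.11, 10.88 and 11.10 at 4 weeks. Its DEN arrays lay below all 6 others, and the difference of -1.12 ± 0.15 (SE; adjusted p = 0.000486) was called whichever array was left out. The second Depp1 probe set differed by -0.21 and was not called (adjusted p = 0.527).

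The largest falls lay in genes of unlike roles. Ip6k2, an inositol hexakisphosphate kinase, was 8.37, 7.40 and 7.52 with DEN, 9.23, 9.64 and 9.42 with saline and 8.32, 8.90 and 8.35 at 4 weeks. The DEN and 4-week arrays overlapped at their nearest and saline was highest; the difference was -1.67 ± 0.23 (SE; adjusted p = 0.000569), and a second probe set differed by -0.35 and was not called. Malat1, a long nuclear noncoding RNA that gathers in splicing speckles, was 10.16, 10.36 and 10.80 with DEN, 11.63, 12.29 and 12.26 with saline and 10.47, 11.86 and 11.29 at 4 weeks. The difference was -1.62 ± 0.29 (SE; adjusted p = 0.00364); of its 6 other probe sets 1 was also called, at -1.26, and the rest ran from -0.99 to 0.12. Abtb2 (-1.24), Pmf1 (-1.30), Zfp950 (-1.0) and Morc3 (-0.94, a nuclear-body ATPase) were, like Ip6k2 and Malat1, called whichever array was left out. The second Abtb2 probe set was also called (-1.22), while the others of Zfp950 (-0.54 and -0.15) and Morc3 (0.03 and 0.48) were not. Ezr (-1.14), which links membrane to actin, Spry4 (-1.05), an inhibitor of receptor tyrosine kinase signalling, and the mRNA-binding protein Cpeb2 (-0.97) each lost their call without saline array 1 or 2, and Cpeb2 also without DEN array 2 or 3. The other Ezr probe set differed by 0.15.

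Splicing factors shared this direction in part. Of 34 measured genes of that list, which holds Malat1, 4 fell and 1 rose, where 2.2% of all genes fell and 1.58% rose. The list's median was -0.14, with 24 of 34 differences below 0. With deposited values 5 fell and 0 rose, where 3.18% of all genes fell. Srsf10 and Srsf1, serine and arginine rich splicing factors, fell, by 0.62 ± 0.12 and 0.52 ± 0.11 (SE), with adjusted p = 0.00788 and 0.00976. Clk4, a kinase of such factors, fell by 0.41 ± 0.11 (SE; adjusted p = 0.0471). Srsf10 was 7.66, 7.41 and 7.57 at 4 weeks, below its DEN levels of 8.09, 8.0 and 7.76. Its other probe sets differed by 0, -0.15 and 0.03 and were not called. Another Srsf1 probe set was also called (-0.44, adjusted p = 0.0103), while the rest ran from -0.36 to 0.31. Hnrnpu, a nuclear scaffold protein, rose by 0.32 (0.29 and adjusted p = 0.0549 on the deposited scale). The other Hnrnpu probe sets differed by 0, 0.14, 0.18 and -0.32 and were not called. Without saline array 2 only 1 member fell, since Srsf1 and Srsf10 then had adjusted p = 0.0513, and without the other arrays 3 or 4 did. Jund, an AP-1 subunit, fell by 0.82 ± 0.15 (SE; adjusted p = 0.00389) and was the 1 gene called of 23 immediate early genes; its other probe set had the opposite sign. The probe sets of the chaperone Hspa4, the 1 gene called of 21 heat shock genes, disagreed: the brightest differed by -0.64 ± 0.14 (SE; adjusted p = 0.0118) and another by 0.44 (adjusted p = 0.0201), so no direction is given for the gene. Of 25 proteasome genes 3 rose (Psmb7 by 0.50, Psmb1 by 0.30, Psmc3 by 0.28) and 1 fell (Psmc4 by 0.51). Of 19 ribosomal protein genes Rps3 rose by 0.34 and Rps9 fell by 0.49. Over all genes 1.58% rose and 2.2% fell, so single calls in lists of this size are near that share. Other probe sets of Psmc4 (0.15), Rps9 (0 and 0.13) and Rps3 (-0.03 and -0.17) were not called. The ribosomal protein list depended on the scale. With deposited values 13 of the 19 rose and 0 fell, where 3.82% of all genes rose, with a median of 0.43. The deposited differences were 0.62 for Rps3 and -0.19 (adjusted p = 0.265) for Rps9.

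Among the largest rises, most calls were lost in some of the fits without 1 array. Cenpn (0.81) and Dact2 (0.77) lost theirs in all 6 such fits. Their differences there stayed within 0.69 to 0.88 and 0.70 to 0.85. Trpc4ap, an adaptor of a ubiquitin ligase, was 7.62, 8.47 and 8.26 with DEN, 6.97, 6.95 and 5.68 with saline and 7.98, 7.25 and 8.16 at 4 weeks. DEN and 4-week arrays overlapped; the difference from saline was 1.58 ± 0.34 (SE; adjusted p = 0.0121), with adjusted p = 0.0533 without DEN array 2 and 0.0718 without saline array 3, the lowest of its group. Scara5, a ferritin receptor, was 8.23, 8.36 and 9.54 with DEN, 7.85, 7.23 and 7.90 with saline and 5.55, 5.75 and 5.72 at 4 weeks. DEN array 3 was far the highest, and the difference of 1.05 ± 0.27 (SE; adjusted p = 0.0301) had adjusted p = 0.148 without it; the call was lost without any single saline array too. Map3k12 (0.85), the dual leucine zipper kinase, lost its call without saline array 2 or 3, and Preb (0.76), which regulates vesicle budding from the endoplasmic reticulum, without DEN array 2 or any saline array. Nags, which makes the activator of the first urea cycle enzyme, rose by 0.61 ± 0.10 (SE; adjusted p = 0.00267), called whichever array was left out; with Gnmt (0.22) it made up the 2 risen of 26 urea cycle and amino acid genes. Over all genes 1.58% rose. With deposited values 14 of these 26 rose and 0 fell, where 3.82% of all genes rose, with a median of 0.34, and Gnmt rose by 1.0. Of the 300 called genes with 2 or more tested probe sets, all other probe sets had the same sign in 153, another was called in the same direction in 37 and another was called in the opposite direction in 3.

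In whole liver, fewer cells of a type and less RNA per cell cannot be told apart. The summed level of 7 stellate cell markers was 4900 to 5510 with DEN and 5900 to 6280 with saline. Of these Colec11, a collectin, was called: it fell by 0.63 ± 0.09 (SE; adjusted p = 0.00115), while its second probe set had the opposite sign. Dcn, Lrat and Reln, markers of the same cell, differed by -0.18, -0.32 and -0.06, and Des, Col1a1 and Col3a1 by 0.51, 0.44 and 0.12; none of these 6 was called. The summed level of the 3 erythroid markers on the array was 720 to 926 with DEN and 505 to 616 with saline, nearly all of it Alas2, the erythroid enzyme that starts heme synthesis, which rose by 0.55 ± 0.11 (SE; adjusted p = 0.00778); Hba-a1 and Slc4a1 had mean signals of 20.3 and 5.5 with DEN. The sums of 10 Kupffer cell and macrophage markers (5630 to 7400 with DEN, 5600 to 6650 with saline) and of 7 endothelial markers (3380 to 3790 and 3500 to 3710) overlapped between the groups, as did those of cholangiocyte, T and NK, B and plasma cell, neutrophil, pancreas, adipose, muscle and kidney markers, with Krt19, Cd3e, Cd79a and Cpa1 at mean signals under 15 in both groups. The part of cell mixture in the gene differences was not tested.

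The same contrast in the mice labelled knockout served as a second set of 6 arrays, with limits. Its saline arrays share the compressed signal range (highest signals 18609 to 20745). It was also taken from the same normalization and fit, so each gene has the same pooled spread in both contrasts. The calls in wild type and in the mice labelled knockout are therefore not independent, and their overlap is a description only. The brightest Hmgn1 probe set did not separate the genotypes, with signals of 5631 to 6894 on the DEN arrays labelled knockout and 5392 to 6983 on those of wild type, and no information on which part of the gene was removed was used, so the genotype labels were not checked by it. There 1469 of 12900 genes were called (11.4%), 5.78% risen and 5.61% fallen. Of the 488 genes called in wild type 315 were also called there, 64.5% of the wild-type and 21.4% of the knockout calls, all 315 in the same direction, and 467 of 488 (95.7%) had the same sign. Ip6k2 (-1.53 in the mice labelled knockout), Malat1 (-2.08), Sesn1 (-1.0), Trpc4ap (1.6), Mup3 (0.73), Lcat (0.56) and Saa2 (0.76) were called in both. As a list the 29 acute-phase genes were not shifted in the mice labelled knockout. Their median was 0.02, with 15 differences above 0 and 14 below, 4 genes risen and 2 fallen. Of the 18 lipoprotein genes 7 rose and 3 fell in those mice, with a median of 0.12.

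Fewer cholesterol synthesis genes fell there. The 21 genes had a median of 0.12 in the mice labelled knockout, with 1 risen and 2 fallen, and Hmgcs1 and Fdft1 differed by -0.27 (adjusted p = 0.479) and 0.04 (adjusted p = 0.889), while Insig1 fell by 0.37. The difference between the genotypes' responses was 0.79 for Hmgcs1 and 0.72 for Fdft1 and passed the test for neither (adjusted p = 0.582 and 0.453). Cyp7a1 differed by 0.66 in the mice labelled knockout against -0.88 in wild type; the difference of the responses, 1.54 (95% interval 0.85 to 2.23), had an unadjusted p of 0.00014 and an adjusted p of 0.349. Scara5 (-0.59 against 1.05) and Pmf1 (0.13 against -1.30) also had opposite signs, with adjusted p = 0.365 and 0.408 for the difference. The smallest p over all genes tested was that of Cmtm6, a membrane protein that stabilizes PD-L1, whose difference of responses was -0.80 ± 0.14 (SE; adjusted p = 0.0829); in wild type this probe set differed by -0.26 and was not called, while the second Cmtm6 probe set differed by 0.47 (adjusted p = 0.0159). In limma's test of the difference 0 of 27022 probe sets were called, with 1993 at an unadjusted p under 0.05.

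**Figure D5:**
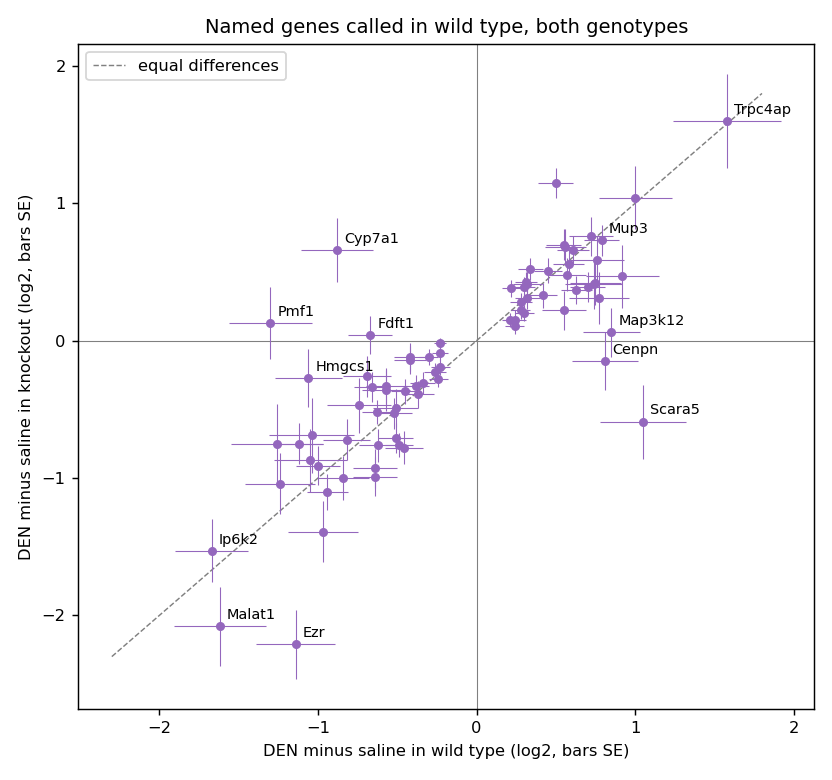
DEN minus saline difference (log2) in the mice labelled knockout against that in wild type for the named genes called in wild type, with bars for the SE of each difference and a dashed line of equal differences. Most genes lie near the line, as Ip6k2, Trpc4ap and Mup3 do; Cyp7a1, Pmf1, Fdft1 and Scara5 lie away from it, with differences that did not pass the test between genotypes.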

How the data were processed

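Per the submitters' processing notes, the deposited values are linear MAS5 signal intensities (version not given), 1 per probe set and array; no build or raw scans were used here. The trimmed mean was 150 on each array. From these, 64 control probe sets were left out, 16 was added, log2 was taken, the 18 arrays were quantile-normalized, and probe sets at or above the 40th percentile of mean level entered the test (27022). The model, in limma 3.58.1 under R 4.3.3, had 1 coefficient per group over all 6 groups, eBayes with an intensity trend, 12 residual and 8.71 prior degrees of freedom, two-sided. Of 45037 probe sets, 34945 have 1 gene symbol, 932 several and 9160 none in the platform annotation; symbols were updated through RefSeq.

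The 54 gene lists (962 measured genes) and the members were chosen with earlier results of these data known. Named were the 12 largest changes each way among called genes with the same sign in the deposited values and a signal of at least 100, up to 4 called members per list (otherwise its 2 brightest), 14 fixed genes, and the smallest p-values of the difference between genotypes; Cyp2a5 and H19 were not tested. Idi1, Cyp51, Apom, Apoe, Clk4 and the details of other probe sets were added after their values were seen. Promoters are RefSeq GRCm38.p6. The fit was tested on simulated data.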

Additional observations from a re-analysis of the deposited data

Results flagged for a closer look

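The 4 hybridization controls are spiked-in foreign transcripts. They lie outside the measurement of liver RNA and differed between the groups with no overlap. DEN minus saline in wild type on the deposited log2 scale was 2.51 for BioB, 2.55 for BioC, 2.49 for BioDn and 2.3 for CreX. The uninjected 4-week wild-type arrays, at 9.06, 10.39, 12.85 and 14.47, lay near the DEN means of 8.85, 10.07, 12.66 and 14.32. Their part in the gene differences was not tested.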

How the results depend on the processing

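The count of 983 called probe sets was 1766 with deposited values, 1761 with centred array medians, 524 with the compared groups fitted alone, 434 with no intensity trend and, in an alternative chosen after seeing the data, 654 without the brightest 5 percent of probe sets; the fits without single arrays gave 278 to 1171. Cyclic loess, added values of 1 or 64, no filter or the 60th percentile, array weights, leaving out _x_at and _s_at probe sets, the Gapdh ratio as a covariate and leaving out the 4-week arrays gave 742 to 1249. The replicate block gave 932 (372 higher, 560 lower); same-numbered arrays deviated together with correlations of 0.12, 0.055 and 0.067, so the numbers were not taken to pair samples, although each DEN array correlated best with its own number. The difference between genotypes gave 0 calls, 1 without _x_at and _s_at probe sets, 2 without the brightest 5 percent (both lower), and 0 to 2 without single arrays; centring moved its median from 0.008 to 0.131. Signs that turned, as deposited, centred and loess values where each turned: Acaa1b 0.83, 0.75 and 0.27; B2m 0.87, 0.79 and 0.33; Car3 0.97, 0.89 and 0.34; Cyb5a 0.87, 0.80 and 0.37; Fabp1 1.24, 1.17 and 0.57; Fth1 0.71, 0.63 and 0.19; Cycs 0.42 and 0.34; Elovl5 0.25 and 0.17; Errfi1 0.38 and 0.30; Tfr2 0.02. The cause of these moves was not tested. Of the 78 called named genes, 63 kept direction and call with deposited values, 36 with the groups alone, 76 with the block and 26 to 69 without single arrays. With 3 arrays a group, small differences may go uncalled, and saline treatment cannot be told apart from the saline arrays' signal range.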
